A study of Mus musculus with 6 samples.

Results

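The angiopoietin family and its TIE receptors were examined as 8 genes, chosen by name from the 54532 genes of the deposited table. They were the angiopoietin genes Angpt1 and Angpt2, the angiopoietin-like genes Angptl1, Angptl2, Angptl4 and Angptl6, and the receptor genes Tek (TIE2) and Tie1. Expression was measured by RNA sequencing in primary ventricular cardiomyocytes isolated from C57BL/6J mice at 1 day of age. In 3 libraries the cells carried a short hairpin RNA, which silences the transcript it matches, directed at Gdf11 (here called shGDF11). In the other 3 they carried a control hairpin (sh-nc in the sample labels, sh-Vector in the protocol). All 6 samples were given hairpin vector at a multiplicity of infection of 200, and RNA was taken 48 h later. The samples of each group are numbered 1 to 3 within the treatment label itself, and the labels do not tell what the number stands for. It could mark cultures or different hairpin sequences. Whether the samples were independent cultures is not stated either. Each p-value thus reflects only how far these samples scatter, and that scatter may be technical. The series concerns Gdf11 deficiency and cardiac angiogenesis, and the comparison asks which of these vessel-regulating transcripts differ when Gdf11 is lowered.

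Angiopoietins are secreted ligands of TIE2, a receptor tyrosine kinase of the vessel wall. ANGPT1, made by perivascular cells and by cardiomyocytes, activates TIE2 and keeps endothelium quiescent, while ANGPT2, made largely by endothelium, acts as a weak agonist or as an antagonist depending on context. TIE1 binds no angiopoietin strongly by itself and modulates TIE2 as a partner. The angiopoietin-like proteins share the domain structure of the angiopoietins but do not bind TIE2. ANGPTL4 inhibits lipoprotein lipase, the enzyme that releases fatty acids from circulating triglyceride, and its gene responds to PPAR receptors, hypoxia and glucocorticoids. ANGPTL2 is a secreted protein linked to inflammation and matrix remodelling.

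The upstream sequences of the receptor genes are shown because Tie1 fell between the groups while Tek was not called, as described with their values. RefSeq's promoter windows on GRCm38.p6 hold 250 bases before a gene's start, and 5 of the 8 genes were matched there (Angptl1, Angptl2, Angptl6, Tek and Tie1). Angpt1, Angpt2 and Angptl4 were not matched. The Tek sequence lies at chr4:94739039-94739288 on the plus strand. The Tie1 sequence lies at chr4:118490062-118490099 on the minus strand and is the 38 bases of its window that lie upstream of the gene's outer end in the deposited table. These are the bases of the window farthest from the RefSeq start. The bases nearest that start were not searched for Tie1, whereas the Tek sequence runs up to its start, so the 2 are not a like comparison. Capitals mark GGAA, the core of sites bound by ETS transcription factors, or its reverse complement TTCC.
Tek: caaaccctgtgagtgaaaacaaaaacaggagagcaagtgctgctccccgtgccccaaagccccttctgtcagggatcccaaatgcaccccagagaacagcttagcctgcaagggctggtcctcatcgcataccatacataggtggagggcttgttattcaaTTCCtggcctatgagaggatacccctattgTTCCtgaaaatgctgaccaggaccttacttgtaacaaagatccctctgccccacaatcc
Tie1: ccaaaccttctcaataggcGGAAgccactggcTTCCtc
Each sequence held 2 matches to this core. A match occurred in 93.4% of 32544 windows of 250 bases and in 33.4% of the same windows cut to their first 38 bases. The hypoxia response element core (ACGTG or GCGTG), the SMAD element CAGAC and the FOXO site GTAAACA, searched on both strands, had 0 matches in either sequence. Over the windows of 250 bases, these motifs were present in 38.8%, 42.2% and 3.17%, and over the first 38 bases in 6.26%, 7.63% and 0.464%.

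The libraries held 15267083 to 16152910 reads in the listed genes, recovered from the FPKM values (fragments per kilobase of gene length, scaled to library size). Gdf11 was at 2.30 to 2.76 FPKM in the control libraries and at 0.601 to 0.778 FPKM in the shGDF11 libraries, or 27.1% of control by the group means. Cardiomyocyte markers summed to 8916 to 9196 FPKM in control and 7236 to 7496 FPKM in shGDF11, with none of the 10 at 0. Of these markers 5 fell and 2 rose: the sum was carried mainly by the cardiac actin gene Actc1 (4187 to 2766 FPKM), while the myosin light chain gene Myl2 (543 to 813 FPKM) and the troponin gene Tnni3 (378 to 476 FPKM) rose. Leaving out single libraries gave 3 to 5 falls and 0 to 3 rises among them, the latter 0 when shGDF11 replicate 2 or 3 was omitted. When all low genes were kept in the test, 2 fell and 0 rose. No erythroid marker reached the filter on low values. Control replicate 1 stood farthest from its group, with a chi-square per degree of freedom of 13.6 and 18.3 against the other controls, which differed from each other by 5.45. The 15418 genes whose mean over the 6 libraries reached 0.5 FPKM were tested with limma on log2(FPKM + 0.5). Those with a Benjamini-Hochberg adjusted p below 0.05 over this whole set were called, which was 27.6% of them (14.4% higher and 13.1% lower in shGDF11). Higher genes made up 52.4% of the calls, and 66.3% after rescaling to TPM (FPKM divided by the library's own FPKM total). Of the cardiomyocyte markers, 70% were called.

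Of the 8 genes, 7 passed the filter, and Angptl1 did not. Angpt1, Angpt2, Tie1 and Angptl4 fell in shGDF11, to between 57.8% and 66.1% of their control levels, and 0 rose, against a background of 13.1% of genes called lower. Tek, Angptl2 and Angptl6 were not called. In the 4 genes that fell, every shGDF11 library was below every control library. Groups without overlap were seen in 45.8% of all tested genes, 23.7% higher and 22.2% lower. For each of the 4 the exact two-sided permutation test over libraries gave p = 0.1, the smallest that 3 against 3 allows. The median log2 fold change of the 7 genes was -0.57, against 0.01 over all genes tested.

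**Figure D1:**
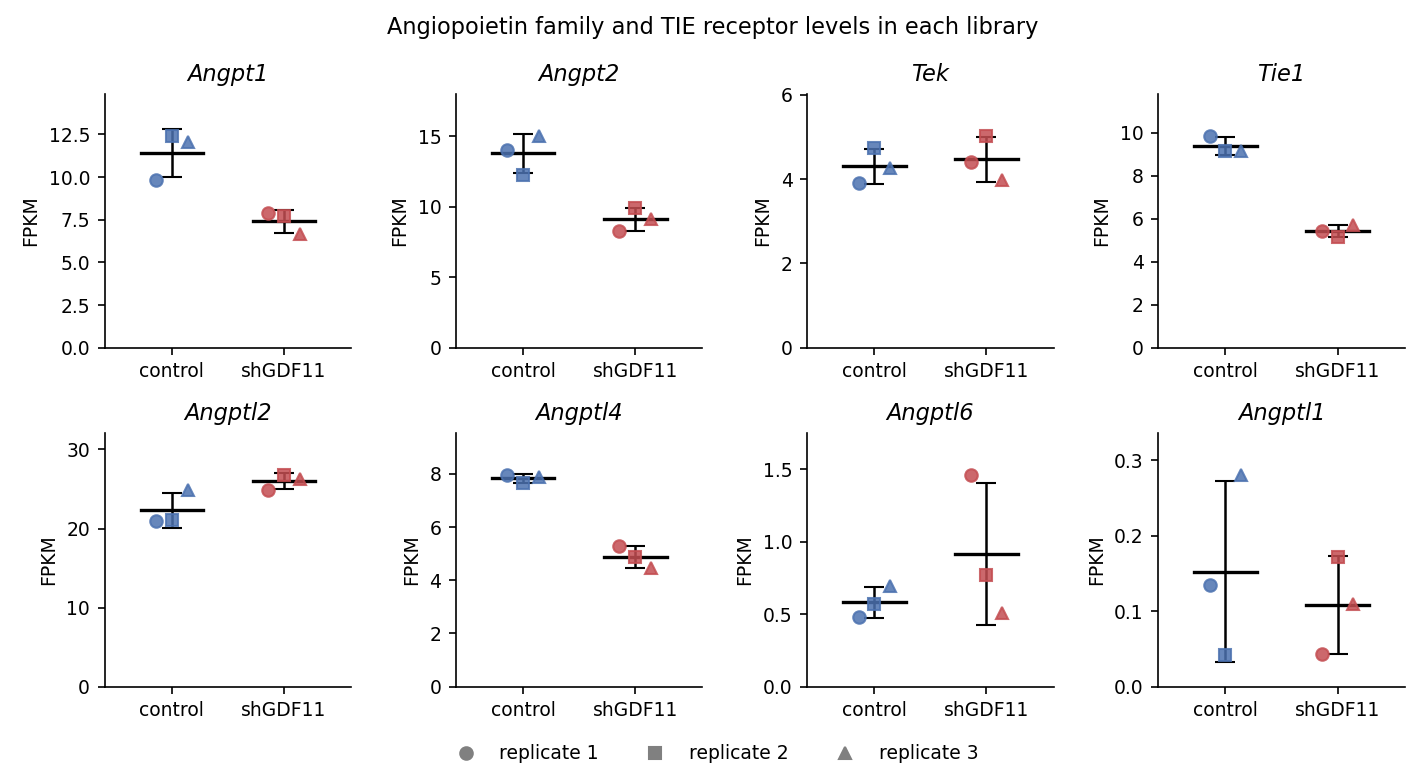
Level of each gene in FPKM (y axis, from 0) in the 3 control and 3 shGDF11 libraries (x axis). Points are libraries with their replicate number by shape, horizontal lines are group means and bars are ± 1 SD. Angpt1, Angpt2, Tie1 and Angptl4 show no overlap between the groups, while Tek, Angptl2, Angptl6 and Angptl1 do.

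By level, which FPKM allows to be compared between genes because it is scaled by length, Angptl2 was the most abundant of the 8 in both groups. In the control libraries Angpt2, Angpt1, Tie1, Angptl4 and Tek followed, and Angptl6 and Angptl1 were each below 1 FPKM. The control ranges of Angpt2 and Angpt1 overlapped, as did those of Angpt1 and Tie1. In shGDF11 the order by mean was the same, but Tie1 overlapped Angptl4 and Angptl4 overlapped Tek. Tie1 exceeded the highest Tek value of its group in all 6 libraries.

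Angpt1, the TIE2 agonist, was at 9.81, 12.4 and 12.0 FPKM in control replicates 1, 2 and 3 and at 7.88, 7.73 and 6.63 FPKM in the shGDF11 replicates. The lowest control was replicate 1, and it still exceeded the highest shGDF11 library. The group means were 11.4 ± 1.41 and 7.41 ± 0.681 FPKM (mean ± SD over 3 libraries a group, the form used for levels throughout). The log2 fold change was -0.59 ± 0.11 (SE; limma adjusted p = 0.0091). These values rested on 557 to 1077 reads per library. The gene (ENSMUSG00000022309) lies on chromosome 15 from 42424723 to 42676977 on the minus strand of GRCm38, and 14.2% of its exon bases also belong to the antisense gene Gm17473, which had 0 to 7 reads per library.

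Angpt2, the context-dependent TIE2 ligand, was at 14.02, 12.3 and 15.0 FPKM in the control libraries and at 8.30, 9.91 and 9.09 FPKM in the shGDF11 libraries. Every shGDF11 library was again below the lowest control. Its means were 13.8 ± 1.39 and 9.10 ± 0.809 FPKM, and its log2 fold change was -0.57 ± 0.10 (SE; limma adjusted p = 0.0065). Angpt2 (ENSMUSG00000031465, chromosome 8, 18690263 to 18741562, minus strand) lies inside Mcph1, a gene of the plus strand with which it shares no exon base. Mcph1 itself, a gene of the DNA damage response, was at 1.46 ± 0.0856 and 1.55 ± 0.159 FPKM, a difference that did not pass the test (limma adjusted p = 0.72).

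The balance of these ligands did not shift detectably. The log2 ratio of Angpt2 to Angpt1, with 0.5 FPKM added to each, was 0.49, -0.02 and 0.31 in the control libraries and 0.07, 0.34 and 0.43 in shGDF11, so the groups overlapped across most of their range. The difference of the group means was 0.02 on the log2 scale (exact two-sided permutation p = 0.90), and leaving out single libraries moved it between -0.12 and 0.13.

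A further angiopoietin gene, Angpt4, which was not among the 8 and which encodes another TIE2 ligand, moved the other way. It was at 1.09, 0.719 and 0.866 FPKM in the control libraries and at 2.29, 2.07 and 1.81 FPKM in the shGDF11 libraries. Its reads numbered 28 to 40 and 68 to 88 per library. Angpt4 rose by 0.88 ± 0.14 (SE) on the log2(FPKM + 0.5) scale (limma adjusted p = 0.0053), which understates the change of so low a gene. The ratio of its reads, scaled by depth, was 2.32 (exact 95% interval 1.83 to 2.95, counting error only). Summed over Angpt1, Angpt2 and Angpt4, the angiopoietin transcripts went from 26.1 ± 1.61 to 18.6 ± 1.09 FPKM. Angpt4 made up 3.44 ± 0.824% of that sum in control and 11.1 ± 1.17% in shGDF11.

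**Figure D2:**
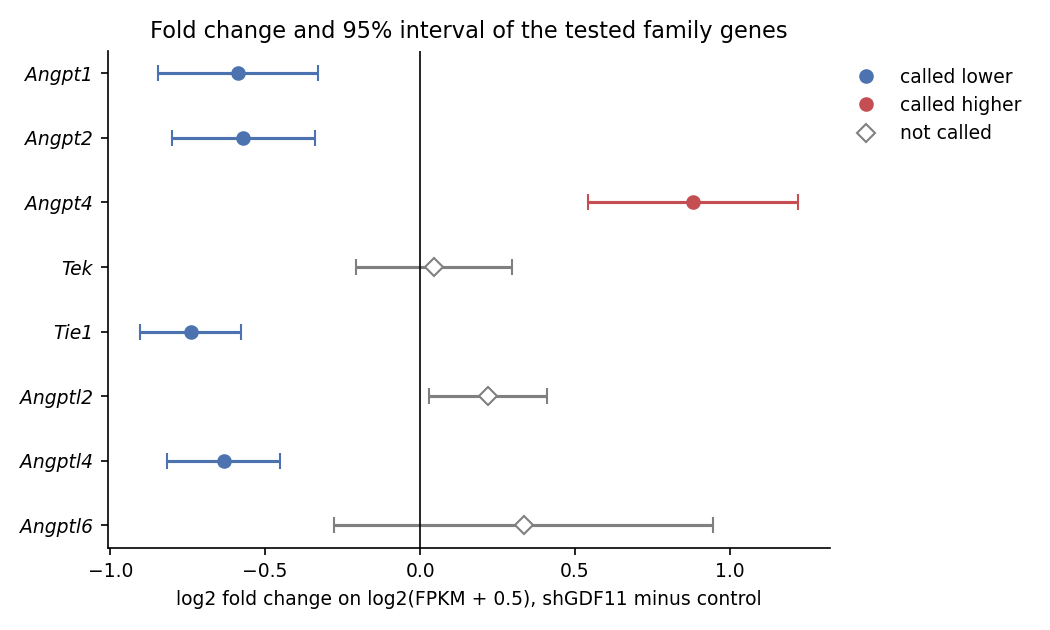
Log2 fold change on log2(FPKM + 0.5), shGDF11 minus control (x axis), with its 95% interval from limma, for the 7 tested genes and Angpt4 (y axis). Filled circles are called and open diamonds are not; Angpt1, Angpt2, Tie1 and Angptl4 lie between -0.74 and -0.57, Angpt4 lies at 0.88, and the interval of Tek spans 0.

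Tie1, the receptor that partners TIE2, showed the smallest adjusted p of the 8 genes. It was at 9.86, 9.16 and 9.15 FPKM in the control libraries and at 5.42, 5.15 and 5.70 FPKM in the shGDF11 libraries. The values within each group lay close together and far from those of the other group. The means were 9.39 ± 0.407 and 5.42 ± 0.272 FPKM, a log2 fold change of -0.74 ± 0.07 (SE; limma adjusted p = 0.00080). Tie1 (ENSMUSG00000033191, chromosome 4, 118471191 to 118490061, minus strand) overlaps no other gene of the table, and each library held 415 to 762 of its reads.

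Tek, the angiopoietin receptor itself, was at 3.92, 4.74 and 4.27 FPKM in control and at 4.40, 5.03 and 3.97 FPKM in shGDF11. The shGDF11 range enclosed control replicates 2 and 3, and only control replicate 1 lay below it. Its log2 fold change was 0.05, with a 95% interval of -0.21 to 0.30 (limma adjusted p = 0.78), so a fall as large as that of Tie1 lay outside the interval. Tek (ENSMUSG00000006386, chromosome 4, 94739289 to 94874976, plus strand) had 290 to 388 reads per library. The log2 ratio of Tie1 to Tek, which was not among the listed tests and is given as a description, was 1.04 ± 0.17 in control and 0.26 ± 0.22 in shGDF11.

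TIE receptors are endothelial genes, and the cultures held endothelial transcripts. Of 16 endothelial markers, all tested, 12 fell in shGDF11 and 0 rose, which is 75% called lower beside 13.1% of all tested genes. Their median log2 fold change was -0.51, against 0.01 over all genes tested. Their summed level was 127 to 135 FPKM in control and 91.7 to 94.2 FPKM in shGDF11, and none was at 0 in any library. Esam, an endothelial adhesion molecule, fell from 7.91 to 4.24 FPKM, Cdh5, the cadherin of endothelial junctions, from 23.9 to 14.03 FPKM, Vwf, von Willebrand factor, from 2.47 to 1.25 FPKM, and Eng, a TGF-beta co-receptor, from 34.3 to 26.5 FPKM. Emcn, Cldn5, Mmrn2 and Sox17, the markers not called, had log2 fold changes of -0.18, -0.11, -0.04 and -0.67. In these bulk cultures, fewer endothelial cells and less RNA per endothelial cell cannot be told apart, and the part of the markers' fall in that of Tie1, Angpt1 and Angpt2 was not tested.

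The receptor genes were also set against the mean log2 level of these 16 markers in the same library. Tek lay below that mean in every control library, by -0.50, -0.24 and -0.28, and above it in every shGDF11 library, by 0.17, 0.37 and 0.05. The difference between the groups was 0.54 on the log2 scale (exact two-sided permutation p = 0.1). Tie1 lay above the marker mean in all 6 libraries, by 0.70 ± 0.05 in control and 0.45 ± 0.06 in shGDF11. Its difference was -0.25 (exact two-sided permutation p = 0.1). For both receptors the groups did not overlap on this scale. The marker mean itself differed by -0.49 between the groups, from 2.60 ± 0.06 to 2.11 ± 0.01, without overlap. A gene that did not change can thus also separate on this scale, and Tek's own levels overlapped between the groups. How many of all tested genes separate in this way was not counted. The single markers varied too, with log2 fold changes from -0.83 (Esam) to -0.04 (Mmrn2). Tie1, at -0.74, lay within that range beside Cdh5 (-0.74) and Vwf (-0.76), and Tek, at 0.05, lay just above Mmrn2. Without any single library the difference stayed between 0.45 and 0.61 for Tek and between -0.28 and -0.22 for Tie1.

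**Figure D3:**
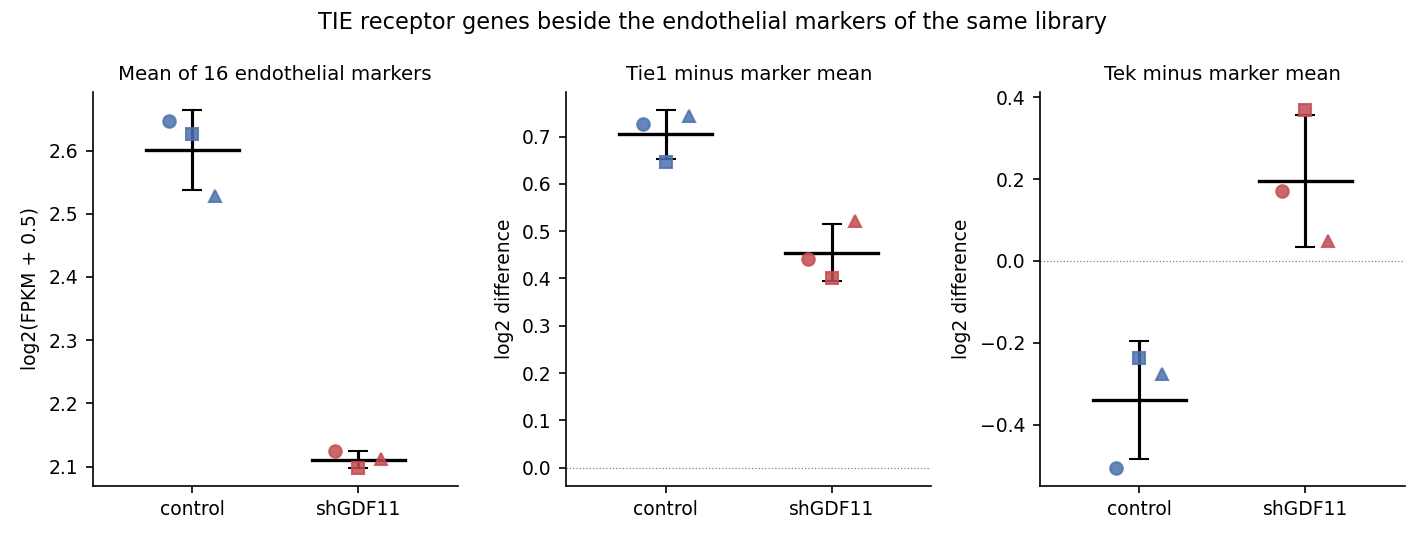
Left, the mean log2(FPKM + 0.5) of 16 endothelial markers in each library; middle and right, Tie1 and Tek minus that mean (y axes, log2 units, not starting at 0) by group (x axes). Points are libraries with replicate numbers 1, 2 and 3 as circle, square and triangle, lines are means and bars are ± 1 SD. The marker mean was 2.60 in control and 2.11 in shGDF11. Tie1 minus that mean was lower in shGDF11, while the fold change of Tie1 lay within the range of the single markers. Tek minus that mean was higher, while Tek itself was not called.

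Among the angiopoietin-like genes, Angptl4, the lipoprotein lipase inhibitor, fell. It was at 7.96, 7.65 and 7.89 FPKM in the control libraries and at 5.30, 4.87 and 4.47 FPKM in the shGDF11 libraries. The control values lay within a narrow range, well above the highest shGDF11 value. The means were 7.83 ± 0.163 and 4.88 ± 0.413 FPKM, and the log2 fold change was -0.63 ± 0.08 (SE; limma adjusted p = 0.0017). Angptl4 (ENSMUSG00000002289) lies on chromosome 17 from 33773750 to 33781575 on the minus strand in the deposited table; GENCODE M21 gives this identifier other bounds, so its length, and with it its level in FPKM, depends on the annotation.

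Angptl2, the most abundant of the 8, was at 21.0, 21.1 and 24.9 FPKM in control and at 24.8, 26.8 and 26.3 FPKM in shGDF11. Control replicate 3 reached the lowest shGDF11 library, and the other controls were lower. Its means were 22.3 ± 2.23 and 26.0 ± 1.01 FPKM. The log2 fold change was 0.22, with a 95% interval of 0.03 to 0.41 before adjustment, and Angptl2 was not called (limma adjusted p = 0.088). Without control replicate 3 it was called as higher (log2 fold change 0.30, limma adjusted p = 0.0207). Angptl2 (ENSMUSG00000004105, chromosome 2, 33216069 to 33247717, plus strand) lies inside Ralgps1 on the opposite strand and shares no exon base with it. Ralgps1, a regulator of Ral GTPases, was at 1.56 ± 0.481 and 1.75 ± 0.177 FPKM.

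Angptl6 was low, with a mean of 0.749 FPKM over the 6 libraries against the filter of 0.5 FPKM. It was at 0.483, 0.569 and 0.697 FPKM in control and at 1.46, 0.772 and 0.509 FPKM in shGDF11. A single library, shGDF11 replicate 1, was high, with 38 reads against 12 to 20 in the others. Its log2 fold change of 0.33 had a 95% interval of -0.28 to 0.94 (limma adjusted p = 0.37), and was 0.07 without that library. The gene (ENSMUSG00000038742, chromosome 9, 20873808 to 20879727, minus strand) shares 16.8% of its exon bases with A230050P20Rik on the other strand, whose reads cannot be told apart from its own there if counting ignored strand. A230050P20Rik was at 1.64 ± 0.230 and 1.27 ± 0.280 FPKM, also without a call (limma adjusted p = 0.23).

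Angptl1 was below the filter, with 6, 2 and 13 reads in the control libraries and 2, 8 and 5 in shGDF11. The ratio of its reads, scaled by depth, was 0.711 (exact 95% interval 0.341 to 1.45, counting error only), so a difference was not detectable at this depth. Angptl1 (ENSMUSG00000033544, chromosome 1, 156838562 to 156861078, plus strand) lies inside Ralgps2, a gene of the minus strand that rose from 1.76 ± 0.179 to 2.55 ± 0.0649 FPKM (log2 fold change 0.44, limma adjusted p = 0.0168). Angptl7 and Angptl8 were also below the filter. Angptl7 had 6, 8 and 13 reads in control and 26, 18 and 27 in shGDF11, with a depth-scaled ratio of 2.62 (exact 95% interval 1.66 to 4.24, counting error only). Angptl8, which encodes a regulator of lipase inhibition, had 0 to 8 reads per library.

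Other genes of the angiopoietin and TIE pathway moved in both directions. Of 23 listed, 21 were tested, and 6 rose and 3 fell, which is 42.9% called beside 27.6% of all tested genes. Their median log2 fold change was 0.09. Itgb3, the beta-3 integrin subunit, was at 16.1, 16.2 and 16.8 FPKM in control and at 7.86, 7.74 and 6.996 FPKM in shGDF11 (log2 fold change -1.07, limma adjusted p = 0.00028). Itga5, the fibronectin receptor subunit that also binds angiopoietins, fell from 61.0 to 46.0 FPKM. Rasa1, a RAS GTPase-activating protein, rose from 9.48 to 16.7 FPKM, and Ptpn11, the phosphatase SHP2 that docks on TIE2, from 22.4 to 31.4 FPKM. Svep1, a matrix protein that binds TIE1, rose from 0.873 ± 0.153 to 1.801 ± 0.142 FPKM (log2 fold change 0.75, limma adjusted p = 0.0067). Ptprb, the phosphatase VE-PTP that dephosphorylates TIE2, was at 2.85 ± 0.348 and 3.24 ± 0.303 FPKM, not a called difference (limma adjusted p = 0.32). Foxo1, the transcription factor that drives Angpt2 in endothelium, was at 3.998 ± 0.493 and 4.71 ± 0.306 FPKM, likewise uncalled (limma adjusted p = 0.16).

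Around Angptl4, the genes of lipase control were mixed. Of 22 listed, 14 were tested, and 5 rose and 2 fell, with a median log2 fold change of -0.07 (0.01 after rescaling to TPM). That is 50% called, beside 27.6% of all tested genes. Lpl, lipoprotein lipase and the target of ANGPTL4, was at 138.6, 167.7 and 169.5 FPKM in control and at 147.9, 152.1 and 149.5 FPKM in shGDF11. The shGDF11 values lay inside the control range, and Lpl was not called (log2 fold change -0.08, 95% interval -0.28 to 0.13, limma adjusted p = 0.55). Without control replicate 1, the lowest control, Lpl was called as lower (limma adjusted p = 0.0355). Gpihbp1, which carries lipoprotein lipase across capillary endothelium, fell from 2.52 ± 0.397 to 1.51 ± 0.290 FPKM (limma adjusted p = 0.0254). The call of Gpihbp1 was lost without control replicate 2 or 3, without shGDF11 replicate 1 or 2, with no filter on low values and after rescaling to TPM, with a limma adjusted p of up to 0.084. Pcsk5, a proprotein convertase, rose from 1.15 ± 0.0465 to 3.25 ± 0.286 FPKM (log2 fold change 1.18, limma adjusted p = 0.00056). The more abundant convertase genes of the list, Pcsk6 and Furin, went the other way, each without overlap between the groups. Pcsk6 averaged 9.33 FPKM in control against 6.91 in shGDF11, a called fall (limma adjusted p = 0.0184). Furin averaged 29.9 FPKM in control against 23.0 in shGDF11, just short of a call (limma adjusted p = 0.0508). Sel1l, needed for folding and export of the lipase, rose from 13.2 to 17.3 FPKM, and the proteoglycan gene Sdc1 from 16.2 to 23.6 FPKM. The apolipoprotein gene Apoc1 went from 2 to 7 reads per control library to 16 to 41 per shGDF11 library. Its control mean of 0.446 FPKM was below the filter of 0.5 FPKM. Apoc1, counted among the 5 rises, thus passed the filter only through its level in shGDF11 (2.67 FPKM). The number of falls in this list, 2, depended on single libraries: it was 4 when control replicate 1 was left out, and 0 when control replicate 2 or shGDF11 replicate 1 or 2 was.

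Regulators of Angptl4 and other genes under their control were counted in 3 lists. PPAR-delta, a nuclear receptor that induces Angptl4 in heart, is encoded by Ppard, which was at 7.89, 7.94 and 7.07 FPKM in control and at 4.22, 4.29 and 4.05 FPKM in shGDF11 (log2 fold change -0.79, limma adjusted p = 0.00077). Its groups did not overlap. Of 18 tested PPAR receptors and targets, 3 fell (Ppard, Ppara and Acadvl) and 1 rose. That is 22.2% called, below the 27.6% of all tested genes, so the PPAR list did not stand out by its count. The list's median was -0.16 on the log2 scale. The gene that rose was Pdk4, an inhibitor of pyruvate oxidation, which went from 6.33 to 9.42 FPKM. Acadvl, an enzyme of fatty acid oxidation, fell from 39.3 to 21.5 FPKM, and Plin2, the lipid droplet coat gene, was at 40.8 and 36.5 FPKM (not called, limma adjusted p = 0.079, but 0.044 without control replicate 1). Without control replicate 1, 3 of the PPAR genes rose and 4 fell, after rescaling to TPM 3 rose and 2 fell, and the fall of Ppara was lost without any other single library (limma adjusted p up to 0.109 over the alternatives).

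Of 18 HIF-1 targets, 14 fell and 0 rose, or 12 and 1 after rescaling to TPM, and their median log2 fold change was -0.52. That is 77.8% called, beside 27.6% of all tested genes (13.1% lower). The 4 not called were Ldha, P4ha1, Pfkfb3 and P4ha2, with log2 fold changes of 0.01, -0.01, 0.12 and 0.18. In Pfkfb3 and P4ha2 every shGDF11 library was above every control library. Egln3, an oxygen-sensing hydroxylase, fell from 255 to 68.7 FPKM, Ero1l, an oxidase of protein folding, from 53.4 to 21.8 FPKM, and the glucose transporter gene Slc2a1 from 83.0 to 36.9 FPKM. The level of Ankrd37 went from 10.4 to 5.48 FPKM, and that of Vegfa, the endothelial growth factor, from 129.8 to 71.1 FPKM. Of 11 glucocorticoid-responsive genes, 6 fell and 1 rose, which is 63.6% called beside 27.6% of all tested genes. The 4 not called were Mt1, Mt2, Per1 and Tsc22d3, with log2 fold changes of -0.19, -0.69, -0.25 and 0.14. In Tsc22d3 every shGDF11 library was above every control library, and in Mt2 every one was below. The rises numbered 2 without control replicate 1, with library weights and after rescaling to TPM, where 5 fell. The falls numbered 4 without any 1 shGDF11 library, without control replicate 2 and with no filter on low values, and 7 with library weights. The phosphatase gene Dusp1 went from 21.9 to 11 FPKM, the transcription factor gene Klf9 from 9.49 to 6.62 FPKM, the kinase gene Sgk1 from 8.07 to 5.31 FPKM and the EGF receptor inhibitor Errfi1 from 9.91 to 7.13 FPKM. The rise was that of Nr3c1, the glucocorticoid receptor, from 16.7 to 21.4 FPKM, and its call was lost without any 1 shGDF11 library. Whether the fall of Angptl4 went through any of these regulators was not tested.

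**Figure D4:**
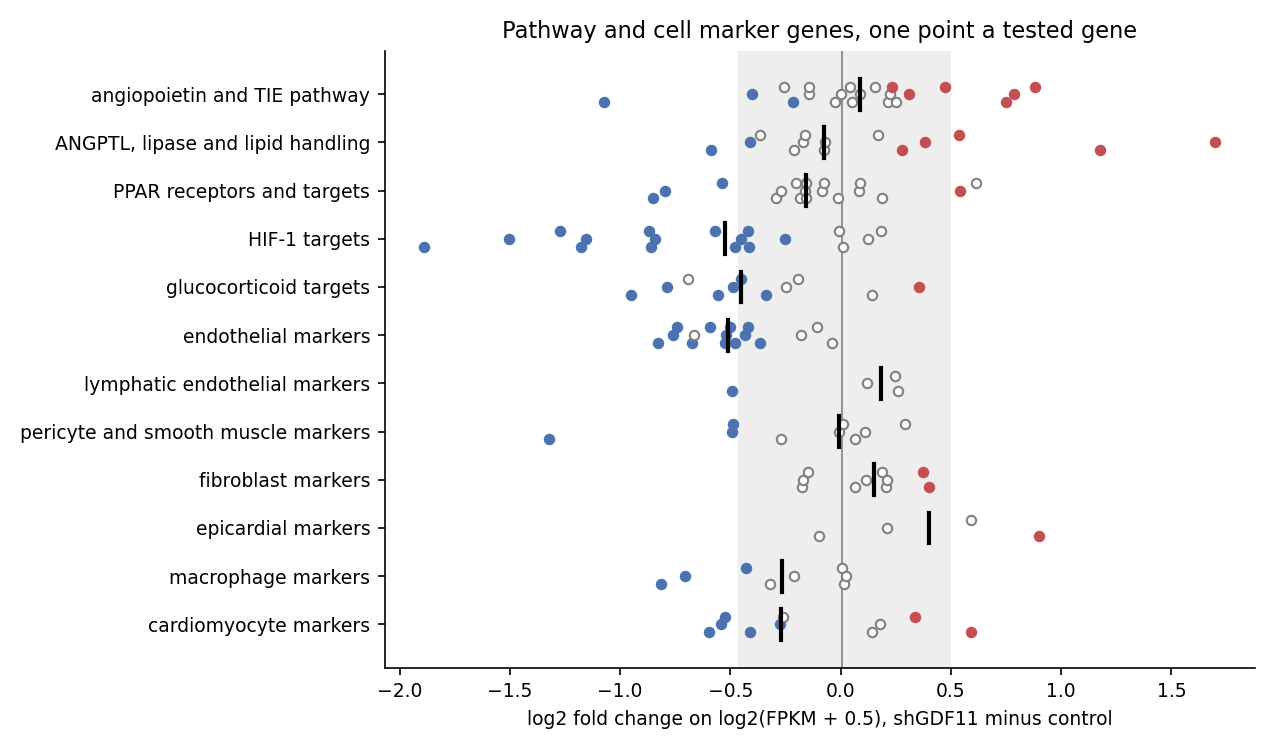
Log2 fold change on log2(FPKM + 0.5), shGDF11 minus control (x axis), of each tested gene of the pathway and cell marker lists (y axis). Blue points fell, red points rose and open points were not called, black bars are list medians, the vertical line is the median of all tested genes and the grey band holds their 10th to 90th percentile (-0.46 to 0.50). The HIF-1 and endothelial lists lie mostly to the left, with medians of -0.52 and -0.51, and the angiopoietin and TIE pathway list lies on both sides.

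For each gene that fell, the most similar profiles among 12859 tested protein-coding genes were taken as those with the smallest root mean square difference of log2(FPKM + 0.5) over the 6 libraries, after centring each gene on its own mean. For Tie1 these included Cdkn1a, a cell cycle inhibitor, and Grem1, a BMP antagonist, at distances of 0.031 and 0.040 against a median of 0.391 over all genes. Angpt1 was most like Lrrc58, Fndc3a and Eid2b (0.048 to 0.054), Angpt2 most like Kcnmb1, Bag4 and Acod1 (0.045 to 0.063), and Angptl4 most like 2010111I01Rik, Wdr61 and D630003M21Rik (0.029 to 0.048). The measure covers only 6 libraries and includes the difference between the groups itself. The 0.5 FPKM added also shrinks the change of low genes. Kcnmb1 went from 0.973 to 0.468 FPKM, Acod1 from 1.26 to 0.647, Grem1 from 1.55 to 0.670 and D630003M21Rik from 1.07 to 0.536. In FPKM, each of these fell by a larger share than the gene it was set beside.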

How the data were processed

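The authors deposited 1 table of FPKM values with gene positions and lengths. Tools named in the submitters' processing notes, without role or order, are featureCounts 1.5.0-p3, HISAT2 2.0.5 and CASAVA 1.8, and the builds GRCm38 and mm10; no source used here gives the annotation release or the strand setting. Of 54409 identifiers shared with GENCODE M21, 53499 had the same coordinates. In each library 100% of positive values, times gene length, lay within 0.05 of a whole read, which gave the reads. The gene lengths are in bases and are the other column used, as deposited per the file headers.

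Log2(FPKM + 0.5) was fitted with limma 3.58.1 (variance trend, two-sided) in R 4.3.3 on all 6 libraries, grouped by treatment label; list counts use the same calls. When the fit was tested on simulated data, the share of false calls was above the threshold. The simulated data held fewer changed genes than were called here and a fixed spread, so the share of false calls in these data was not measured. The genes, lists and naming rule (all 8 genes; up to 4 called genes of smallest p per list; fixed partners) were chosen with earlier results of these data known. A few further list genes were named after their values were seen, and some genes that the rule names are not reported here. The floor, set at 3 reads, equals 0.18 to 0.191 FPKM at 1 kb. Alternatives were the pseudocount, filter, scaling, variance model, library weights, limma voom on recovered reads, the replicate number as a block, and leaving out every library in turn. The median log2 fold change of all tested genes was 0.01, and at most 0.084 under another scaling (TPM).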

Additional observations from a re-analysis of the deposited data

How the results depend on the processing

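Angpt1, Angpt2, Tie1 and Angptl4 remained called as lower under all 18 alternatives, with the limma adjusted p of Angpt1, the highest of the 4, reaching 0.0355 without shGDF11 replicate 3. The count of genes called higher among the 8 was 1, Angptl2, with library weights (0.24 on the log2 scale, limma adjusted p = 0.0317), with limma voom on recovered reads (limma adjusted p = 0.044) and without control replicate 3. Leaving out single libraries gave 0 to 1 genes higher. The log2 fold change of Tek, 0.05, turned to -0.014 with library weights, -0.013 without control replicate 1 and -0.034 without shGDF11 replicate 2, in a range up to 0.12 over single libraries left out. Over all genes, 2328 to 4233 were called without single libraries, against 4253 with all; omitting shGDF11 replicate 1, 2 or 3 gave 2720, 2328 and 2529. The causes were not tested. With the replicate number as a block (replicate block), 3223 genes were called against 4253, and Angpt1, Angpt2, Tie1 and Angptl4 were again the family genes called, all lower. Same-numbered libraries did not deviate together (correlations of -0.052 to 0.015), and not every library correlated best with its own number, so the numbers were not taken as a pairing. At a mean of at least 5 FPKM, Tek and Angptl6 left the test and 5 of 6 endothelial markers fell. Depth limits Angptl1, Angptl6, Angptl7 and Angptl8, with at most 38 reads per library.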

Other observations

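Markers of other vessel-wall and non-muscle cells moved less uniformly than the endothelial list. Among 9 tested pericyte and smooth muscle markers there were 3 falls and no rise, and their median log2 fold change was -0.01. Cnn1, smooth muscle calponin, fell from 27.4 to 10.6 FPKM and Myh11, smooth muscle myosin, from 2.44 to 1.59 FPKM. Cspg4, also used as a pericyte marker, fell from 11.4 to 7.93 FPKM (limma adjusted p = 0.018). Pdgfrb and Rgs5, which mark pericytes too, had log2 fold changes of 0.06 and 0.01. The 3 pericyte and smooth muscle falls were 1 without control replicate 2 or shGDF11 replicate 1, and 1 such marker rose without control replicate 1 or after rescaling to TPM. Of 4 tested lymphatic markers only Pdpn fell (11.8 to 8.26 FPKM), and Lyve1 and Flt4, which mark lymphatic endothelium, were not called, at log2 fold changes of 0.25 and 0.26 (limma adjusted p = 0.0999 and 0.0823; Flt4 passed after rescaling to TPM, at 0.0453). Of 8 macrophage markers 3 fell, led by C1qb, a complement subunit, from 11.7 to 6.46 FPKM, and Csf1r, the macrophage growth factor receptor, had a log2 fold change of 0.01. Of 10 fibroblast markers Col1a2 and Col3a1 rose and 0 fell. The endothelial list is thus the marker list with the largest share of genes called lower among these 5 (75%), a description without a test of the difference. Over all tested genes 13.1% were called lower. In either direction, calls covered 33.3% of the pericyte and smooth muscle, 25% of the lymphatic, 37.5% of the macrophage and 20% of the fibroblast markers. The share over all tested genes was 27.6%.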
